A study of Mus musculus with 6 samples.

Results

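Suprabasal keratinocytes are the cells of the epidermis that have left the basal layer and are differentiating toward the cornified surface. They were chosen here cell by cell from raw UMI (unique molecular identifier, 1 per captured RNA molecule) counts. A cell was kept with at least 500 UMIs, at least 300 detected genes and at most 10% mitochondrial UMIs. It was called suprabasal when Krt1, Krt10 and Krtdap together had at least 20 UMIs and more than Krt5 and Krt14 together. Cells with 2 or more UMIs of Krt79 and Defb6 (upper hair follicle), 2 or more of Nppb or 2 or more of Epgn were left out, as were cells with 3 or more UMIs of Mki67, Top2a and Cdk1 (cycling cells) or 5 or more of Col1a1, Col1a2, Col3a1 and Dcn (fibroblasts). The rule left 1425 suprabasal cells of 34834 cells that passed the quality limits, out of 36542 deposited barcodes.

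The cells came from the dorsal skin of male wildtype C57BL/6 mice aged 8, 26 and 52 weeks. At each age, 1 sample was skin treated ex vivo with PBMC-sec before dissociation, and 1 sample was untreated skin that was dissociated directly after collection. PBMC-sec is what blood mononuclear cells (lymphocytes and monocytes) release into their medium after γ-irradiation, a secretome of proteins, lipids and vesicles. Each of the 6 samples pooled 3 animals and gave 1 droplet library (10x Chromium, 3′ chemistry v3.1) of enzymatically dissociated whole skin. No skin kept ex vivo without PBMC-sec is among the samples, so PBMC-sec and time in culture cannot be told apart in any comparison below. The study was set up around skin macrophages; the keratinocytes were captured with them. The PBMC-sec libraries held 158, 240 and 257 suprabasal cells at 8, 26 and 52 weeks, and the untreated libraries held 443, 203 and 124.

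As keratinocytes move outward they exchange the basal keratins Krt5 and Krt14 for Krt1 and Krt10, strengthen their desmosomes, and in the granular layer make the precursors of the cornified envelope. These precursors, among them loricrin, involucrin and the small proline-rich (SPRR) and late cornified envelope (LCE) proteins, are cross-linked by transglutaminases beneath the plasma membrane. In parallel the cells load lamellar bodies with ceramides, fatty acids and proteases whose activity later sheds the dead corneocytes.

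Levels are given in the usual unit CPM, counts (UMIs) of a gene per 1e6 UMIs summed over the suprabasal cells of a library. These sums were 1180679, 2687120 and 4672443 UMIs in the PBMC-sec libraries at 8, 26 and 52 weeks, and 2087456, 1481511 and 1397538 in the untreated libraries. The median suprabasal cell had 5403, 9220.5 and 14676 UMIs in PBMC-sec libraries, against 1979, 5815 and 8491 in untreated libraries. The untreated library at 8 weeks also held 3612 barcodes in groups whose counts scattered little around a shared profile, called near-identical here. Of these, 116 were suprabasal, and results are given without them where they move. No suprabasal cell shared its barcode with another suprabasal cell of a different library. A few genes took much of the 52-week PBMC-sec sum: its TMM (trimmed mean of M-values) scaling factor was 0.61, against 0.97 and 0.98 in the other PBMC-sec libraries and 1.17 to 1.26 in the untreated ones.

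The label was checked against its markers. Krtdap, which encodes a secreted keratinocyte differentiation-associated protein, supplied most of the UMIs that chose the cells, with a median share per cell of 79.1%, 87.2% and 92.5% in PBMC-sec libraries and 79.7%, 78.1% and 81.4% in untreated libraries. The early differentiation keratins Krt1 and Krt10 alone reached 20 UMIs in 77, 98 and 111 PBMC-sec cells and in 101, 76 and 53 untreated cells, so most members rest on Krtdap. Krt1 had 3404, 2513 and 1308 CPM in PBMC-sec libraries and 2791, 2107 and 1949.9 CPM in untreated ones, against a mean of 179 CPM in basal cells. Krt10 had 1316, 602 and 1257 CPM in PBMC-sec libraries and 1669.5, 857 and 1161 CPM in untreated libraries. These 3 genes defined the cells, and their levels are a description only.

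Lypd3, a cell-surface protein of suprabasal layers that the rule did not use, had 993, 1318 and 1515 CPM in PBMC-sec libraries and 650.1, 861 and 1345 CPM in untreated libraries. Spink5, which encodes the kallikrein inhibitor LEKTI, was seen in 83.0%, 85.5% and 66.3% of PBMC-sec cells and in 45.9%, 39.2% and 55.4% of untreated cells after each cell was thinned to 2000 UMIs. In fibroblast-gated cells of the same libraries, which should lack Spink5, the share was 2.96%, 3.11% and 1.23% with PBMC-sec and 3.09%, 0.923% and 2.63% without. Fibroblast-gated cells, here and below, had at least 20 UMIs of Col1a1, Col1a2, Col3a1 and Dcn together. They also had fewer than 5 UMIs of Krt1, Krt10, Krtdap, Krt5 and Krt14 together. This limit leaves out cells with much keratinocyte RNA, so their shares can be too low as a measure of free RNA. Unthinned, the suprabasal shares were 92.4%, 93.8% and 83.3% with PBMC-sec and 69.5%, 55.2% and 72.6% without. Basal genes were still present, at lower levels than in basal cells. Krt14, which the rule also used, had 2369, 1800.1 and 629.6 CPM in PBMC-sec libraries and 1528, 1187 and 908 CPM in untreated libraries, against 9995 CPM on average in basal cells. It lay above Krt10 in the PBMC-sec libraries at 8 and 26 weeks and in the untreated library at 26 weeks. The 10 basal markers together had 2816, 2251 and 826 CPM with PBMC-sec and 2734, 2325 and 1740 CPM without, against 12807 to 24999 CPM in basal cells. They include Krt5 and Krt14, which chose the cells of both classes, so this gap was in part set by the rule.

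Markers of other cells ranged widely in level. The summed CPM of 10 fibroblast markers was 18.6, 16.0 and 14.3 in PBMC-sec suprabasal cells and 53.7, 33.7 and 70.8 in untreated ones. Col1a1, Col1a2, Col3a1 and Dcn, which the rule limited, are among these markers, so the low sums were in part set by the rule. Of 10 macrophage markers the sum was 158, 145 and 121 CPM with PBMC-sec and 66.6, 46.6 and 43.6 CPM without. Most of the PBMC-sec sum was Cd68, whose levels are given at the end, and the remaining macrophage markers together were not higher with PBMC-sec at every age. Langerhans and dendritic cell markers summed to 1738, 1321 and 324 CPM with PBMC-sec and to 1810, 1099 and 922 CPM without. The neutrophil list summed to 938, 717 and 771 CPM with PBMC-sec and 1034, 1874 and 1205 CPM without, while its defining members Retnlg, Ly6g and Mmp8 were at 0. Upper follicle markers summed to 4511, 1705 and 798 CPM with PBMC-sec and 2122, 2233 and 1409 CPM without. Of these, Cst6 made up 3905, 1286 and 641 CPM with PBMC-sec and 1717, 1815 and 1077 CPM without. Krt79 and Defb6, which the rule limited, are also on this list. In the remaining cells the upper follicle sums were 735, 912 and 1262 CPM with PBMC-sec and 1731, 1479 and 1269 CPM without. They were lower than in suprabasal cells except in the 52-week PBMC-sec library. The Langerhans and dendritic sums there were 1142, 1763 and 798 CPM with PBMC-sec and 1899, 2051 and 851 CPM without. These were lower than in suprabasal cells only in the 8-week PBMC-sec and 52-week untreated libraries. The neutrophil sums were lower in the remaining cells of every library. The part of these cells or of their free RNA in the results below was not tested.

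Cells just inside and just outside the limit overlapped in their levels of genes that the rule did not use. The 189 members with 20 to 24 UMIs of Krt1, Krt10 and Krtdap had between 243 and 2520 CPM of Spink5 per library. The 224 cells with 15 to 19 UMIs that met every other limit had between 124 and 3659 CPM. Sbsn, the suprabasal secreted protein suprabasin, had 1436 to 4454 CPM inside the limit and 1620 to 3556 CPM outside it.

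In PBMC-sec suprabasal cells 19 of 50 tested genes of the cornified envelope and granular layer were called higher than in untreated ones, most of them from the SPRR and LCE3 families. Loricrin and the 14 tested Lce1 genes were not called. Aldose reductase and 6 of 11 genes of EGF receptor ligands and feedback were also called higher, while 4 of 11 interferon-regulated genes and the metallothioneins Mt1 and Mt2 were called lower. Several of these calls change without the loricrin-high cells described further on, and 7 of the 11 interferon-regulated genes were prone to free RNA. Over 8073 genes, 1046 (13%) passed an adjusted p of 0.05 in edgeR's quasi-likelihood test on the summed UMIs with age as a factor and Benjamini-Hochberg adjustment. Of these, 718 (8.89%) were higher and 328 (4.06%) lower with PBMC-sec. An unadjusted p under 0.05 was reached by 2452 genes (30.4%). The median log2 change over all genes was -0.01.

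The split depends on the scaling. TMM takes most genes as unchanged; scaled to library totals alone, the median of all genes was -0.53 and 194 genes were called higher and 666 lower. Without the near-identical barcodes 750 genes were higher and 384 lower. The count of lower genes was 216 without the 26-week PBMC-sec library, 182 without the 26-week untreated library, 577 without the 52-week PBMC-sec library and 740 without the 52-week untreated library. DESeq2 called 515 higher and 148 lower. The p-values rest on 3 libraries of pooled animals per treatment, 1 at each age, and no condition has a replicate library. With age as a factor, they set the treatment difference against its variation between the 3 ages. The labels do not say whether the PBMC-sec and untreated skin of an age came from the same animals.

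**Figure D1:**
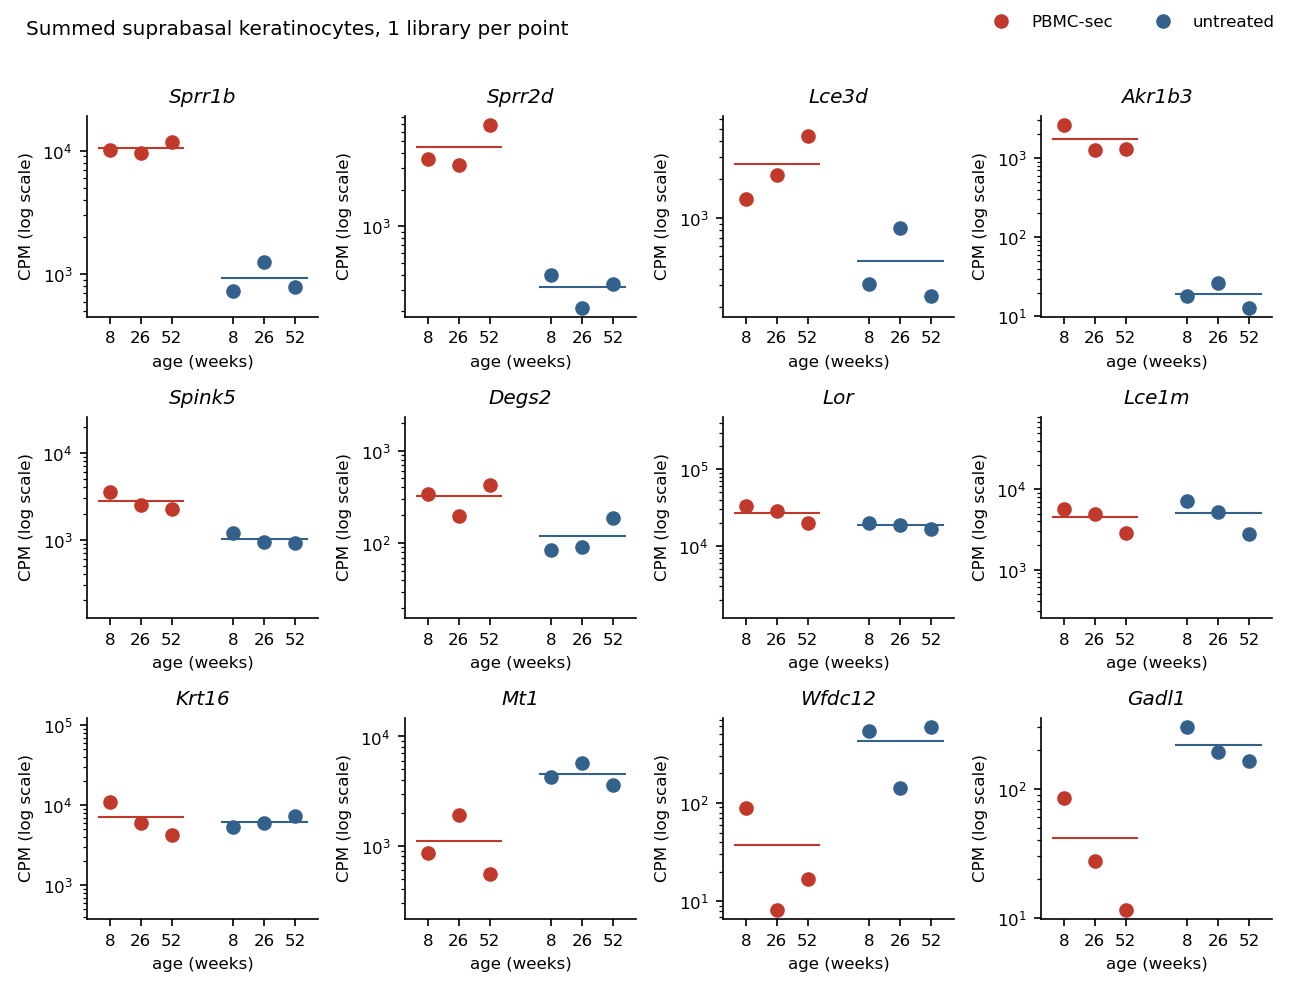
Level (CPM, log axis) of 12 genes in the summed suprabasal cells of each library against age in weeks, with PBMC-sec libraries in red at the left, untreated libraries in blue at the right, 1 point per library and a line at the group mean. Sprr1b, Sprr2d, Lce3d, Akr1b3, Spink5 and Degs2 lie higher in all 3 PBMC-sec libraries, Mt1, Wfdc12 and Gadl1 lie lower, and Lor, Lce1m and Krt16 overlap.

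The cornified envelope and granular layer list had the most calls. Of 50 tested members, 19 rose and none fell, with a median log2 change of 1.14 against -0.01 over all genes. By library totals 17 rose and 1 fell, with a median of 0.59 against -0.53. Sprr1b encodes a small proline-rich envelope precursor that keratinocytes also switch on in stressed and healing epidermis. It had 10126, 9562 and 11794 CPM in PBMC-sec libraries at 8, 26 and 52 weeks, against 734, 1261 and 786 CPM in untreated libraries. Every PBMC-sec library lay above every untreated one, as the groups do not overlap for 3003 of the 8073 genes (37.2%). The log2 change was 4.06 ± 0.58 (SE; edgeR adjusted p = 0.00293). After thinning, 96.5%, 96.2% and 92.1% of PBMC-sec cells and 39.0%, 30.7% and 52.9% of untreated cells had a Sprr1b UMI. In fibroblast-gated cells those shares were 21.9%, 28.8% and 7.23% with PBMC-sec and 5.56%, 5.85% and 7.88% without.

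The related Sprr2 genes rose too. Sprr2d had 3562, 3175 and 6849 CPM with PBMC-sec and 399, 214 and 338 CPM without, a log2 change of 4.31 ± 0.55 (edgeR adjusted p = 0.00176). Sprr2h had 4918, 6367 and 12189 CPM with PBMC-sec and 784, 1061 and 1681 CPM without, a log2 change of 3.21 ± 0.51. Neither gene overlapped between the groups, and both were highest in the 52-week PBMC-sec library. Sprr2e changed by 3.81 ± 0.48 and Sprr4 by 3.81 on the log2 scale. Sprr1a had 38612, 35141 and 45549 CPM with PBMC-sec and 11185, 17494 and 5120.4 CPM without. Its groups did not overlap, yet its log2 difference of 2.46 did not pass (edgeR adjusted p = 0.0637). Members of the Sprr2, Lce1 and Lce3 families are close copies of each other, so a value for a single member is uncertain where a 3′ read could have been placed on its neighbour.

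All 6 measured Lce3 genes rose. Lce3 proteins are envelope components that human epidermis raises after barrier injury. Lce3d had 1417, 2166 and 4356 CPM in PBMC-sec libraries and 302, 829 and 243 CPM in untreated libraries, a log2 change of 3.03 ± 0.67 (edgeR adjusted p = 0.0168). Lce3e had 278, 400.4 and 502 CPM with PBMC-sec and 14.9, 80.3 and 17.2 CPM without, a log2 change of 4.24 ± 0.55. Lce3a, Lce3b, Lce3c and Lce3f changed by 5.83, 4.56, 2.20 and 2.26; the groups overlapped for Lce3b and Lce3f, and Lce3a was over 5 times higher in the cells outside the suprabasal class of at least 1 library, where the part of free RNA was not tested. None of the 14 tested Lce1 genes, whose human counterparts are made in normal epidermis, passed. Lce1m had 5723, 4924 and 2869.8 CPM with PBMC-sec and 7109, 5218 and 2815 CPM without, a log2 difference of 0.39 ± 0.46 that did not pass (edgeR adjusted p = 0.610). Both counts change without the loricrin-high cells: none of 5 tested Lce3 genes and 6 of 9 tested Lce1 genes were then called higher.

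Loricrin, the most abundant envelope protein of mouse epidermis, did not pass either. Lor had 33471, 28314 and 19964 CPM in PBMC-sec libraries and 20214, 18849 and 16680 CPM in untreated libraries, and the groups overlapped (log2 difference 1.04, edgeR adjusted p = 0.258). Filaggrin, which bundles keratin filaments and is broken down to the skin's moisturizing factors, did rise: Flg had 4468, 1811 and 2824 CPM with PBMC-sec and 1245, 269 and 1338 CPM without, a log2 change of 2.41 ± 0.42 (edgeR adjusted p = 0.00625). Its call was lost without either 26-week library. Cnfn, the envelope protein cornifelin, had 8252, 6140.0 and 7476 CPM with PBMC-sec and 2366, 3404 and 2791 CPM without, a log2 change of 1.88. Trex2, a 3′ DNA exonuclease of differentiating keratinocytes, changed by 2.07, and the filaggrin relative Hrnr by 1.45 with overlapping groups. Casp14, the caspase that processes filaggrin, changed by 0.97 with overlapping groups and by -0.01 once cells were thinned to equal depth.

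Many of these genes sit side by side on chromosome 3 in the epidermal differentiation complex, which in this order runs from S100a13 to S100a10 (gene starts 90514435 to 93555080, GRCm38). The bounds were chosen after the values were known. Of 61 tested genes there, 19 rose and none fell, with a median log2 change of 0.99; by library totals 16 rose and 1 fell, with a median of 0.47. The families differed in their counts. In the Sprr family 7 of 13 rose with a median of 2.61, in the Lce3 family 6 of 6 with a median of 3.63, and in the Lce1 family 0 of 14 with a median of 0.45. By library totals the Lce1 median was -0.08. Of 9 S100 genes, which encode small calcium-binding proteins, 1 rose and the median was 0.21. Without the loricrin-high cells the counts were 4 of 12 for Sprr, 0 of 5 for Lce3 and 6 of 9 for Lce1. A test of the families against each other was not made.

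**Figure D2:**
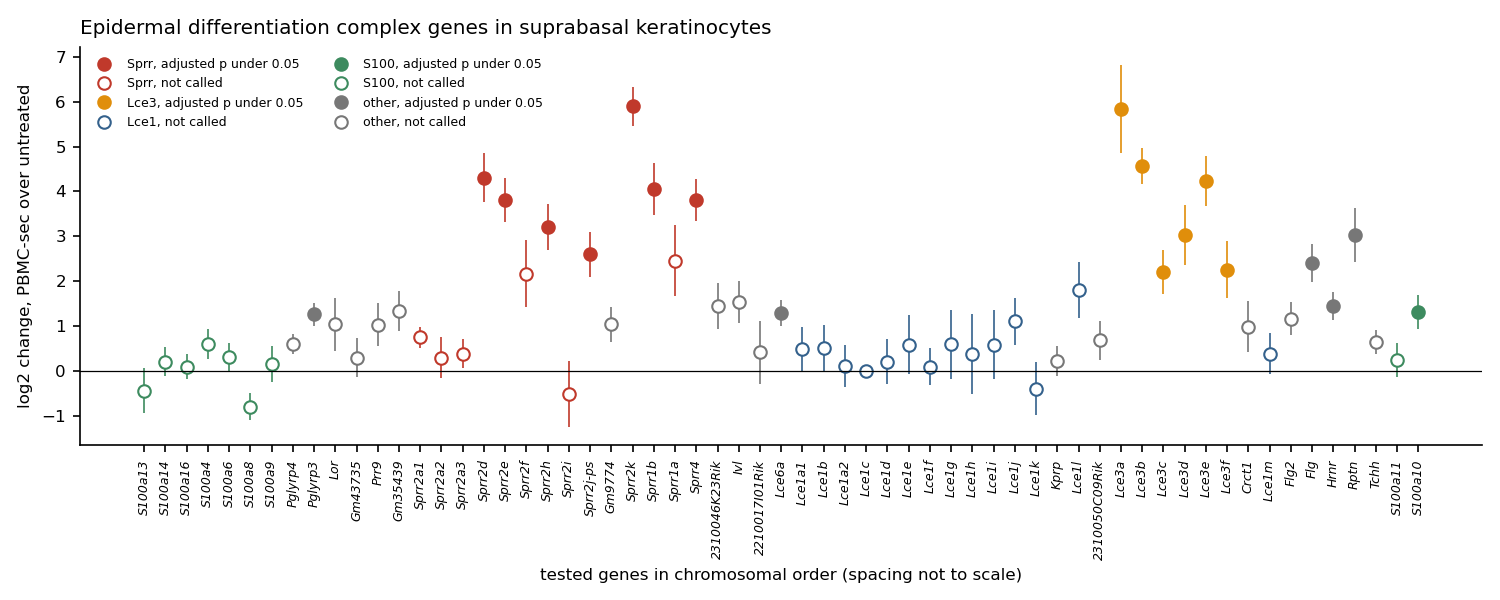
Log2 change of PBMC-sec over untreated suprabasal cells for the 61 tested genes of the epidermal differentiation complex, in order along chromosome 3 and coloured by family; bars are standard errors and filled points passed the edgeR test. The Lce3 and Sprr genes form the high stretches, with family medians of 3.63 and 2.61, and the open Lce1 points have a median of 0.45; without loricrin-high cells, which are not left out here, the Lce3 median was 1.29 and the Lce1 median 4.0.

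The 250 bases before the transcription start are shown for 4 genes of the complex that rose, Sprr1b, Sprr2d, Sprr2h and Lce3d, and for 2 that did not pass, Lce1m and Lor, because these families lie next to each other and differed in their calls over all suprabasal cells. They are from RefSeq (GRCm38.p6), 5′ to 3′ on the gene's own strand, and end at the base before the start. Capitals mark the AP-1 motif TGANTCA, the recognition sequence of Fos and Jun factors, and the TATA box TATAAA, both searched on both strands from 250 bases before to 50 bases after the start. The windows are chr3:92438780-92439029 (minus strand), chr3:92338890-92339139 (plus), chr3:92385435-92385684 (plus), chr3:92957140-92957389 (plus), chr3:93019062-93019311 (minus) and chr3:92083143-92083392 (minus).
Sprr1b: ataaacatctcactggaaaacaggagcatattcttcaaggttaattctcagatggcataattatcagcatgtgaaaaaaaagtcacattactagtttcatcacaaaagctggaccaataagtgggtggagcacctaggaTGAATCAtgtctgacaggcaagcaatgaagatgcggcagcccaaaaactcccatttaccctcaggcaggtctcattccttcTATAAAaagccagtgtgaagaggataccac
Sprr2d: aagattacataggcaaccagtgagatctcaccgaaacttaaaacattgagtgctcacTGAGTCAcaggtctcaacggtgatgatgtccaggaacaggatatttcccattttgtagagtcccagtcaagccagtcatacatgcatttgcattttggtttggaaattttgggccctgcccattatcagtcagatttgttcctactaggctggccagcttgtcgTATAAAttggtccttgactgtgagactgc
Sprr2h: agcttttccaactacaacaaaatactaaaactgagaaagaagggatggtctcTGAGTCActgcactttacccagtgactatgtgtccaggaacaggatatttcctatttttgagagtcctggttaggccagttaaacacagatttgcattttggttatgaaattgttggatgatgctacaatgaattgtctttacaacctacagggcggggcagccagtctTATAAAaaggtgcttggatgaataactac
Lce3d: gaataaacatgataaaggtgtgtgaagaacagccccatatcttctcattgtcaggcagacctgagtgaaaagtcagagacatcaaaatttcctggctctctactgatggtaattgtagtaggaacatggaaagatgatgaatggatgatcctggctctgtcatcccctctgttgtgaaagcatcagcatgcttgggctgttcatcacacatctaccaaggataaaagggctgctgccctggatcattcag
Lce1m: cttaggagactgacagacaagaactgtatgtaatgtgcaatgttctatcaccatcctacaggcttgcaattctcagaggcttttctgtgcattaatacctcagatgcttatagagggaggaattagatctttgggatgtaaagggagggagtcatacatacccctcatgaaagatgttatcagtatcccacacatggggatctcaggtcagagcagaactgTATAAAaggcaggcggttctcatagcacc
Lor: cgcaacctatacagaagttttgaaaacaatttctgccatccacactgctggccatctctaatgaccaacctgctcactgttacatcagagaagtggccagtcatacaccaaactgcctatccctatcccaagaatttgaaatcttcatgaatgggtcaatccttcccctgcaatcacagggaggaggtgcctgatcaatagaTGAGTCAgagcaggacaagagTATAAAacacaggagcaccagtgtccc
The AP-1 letters begin 111 bases before the start in Sprr1b, 193 in Sprr2d, 198 in Sprr2h and 48 in Lor. They are in neither window of Lce3d and Lce1m. A TATA box lies 30 bases before the start in Sprr1b, 29 in Sprr2d, Sprr2h and Lce1m, and 27 in Lor. Over all 32851 RefSeq promoter windows, 7.81% hold the AP-1 letters and 13.6% the TATA box. Among cornified envelope genes with a window, the AP-1 letters are in 6 of 18 called genes and in 7 of 28 tested genes that were not called, and the TATA box in 8 and 7 of them. A match is a run of letters and says nothing of binding.

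Genes of the barrier lipids came next in number of calls. Of 27 tested, 14 rose and none fell, with a median log2 change of 0.88; by library totals 8 rose, with a median of 0.35. Degs2, which makes the hydroxylated sphingoid base of phytoceramides, had 339.6, 195 and 430.0 CPM with PBMC-sec and 83.8, 90.4 and 188 CPM without, a log2 change of 1.96 ± 0.29 (edgeR adjusted p = 0.00297). Alox12b, the lipoxygenase that oxidizes the linoleate of skin ceramides, had 507, 277 and 387 CPM with PBMC-sec and 138, 175 and 191 CPM without (1.71 ± 0.31). Elovl1, an elongase of very long chain fatty acids, had 448, 438 and 385 CPM with PBMC-sec and 239, 179 and 159 CPM without (1.67 ± 0.31). All 3 had every PBMC-sec library above every untreated one.

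Further enzymes of lipid processing were among the genes that rose. Smpd1, acid sphingomyelinase, changed by 1.95, but by 0.08 without the loricrin-high cells (edgeR adjusted p = 0.906). Ugcg, which makes glucosylceramide, changed by 1.47, and Sdr9c7, which acts after the lipoxygenases, by 2.06. Sult2b1, which sulfates cholesterol, changed by 1.54, Aloxe3, the second lipoxygenase of the pathway, by 1.38, and Abhd5, a partner of the acylceramide enzyme, by 1.40. That enzyme, Pnpla1, and Sptlc2, Cers3, Dgat2 and Slc27a4 changed by 0.88 to 1.15 with overlapping groups. Abca12, the lipid transporter of lamellar bodies, had 224, 185 and 225 CPM with PBMC-sec and 171, 148 and 299.8 CPM without (log2 difference 0.62, edgeR adjusted p = 0.108).

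Among 30 tested transcription factors of epidermal differentiation 7 rose and 1 fell, with a median of 0.51; by library totals 4 rose and 4 fell. Rora, a retinoid-related orphan receptor, had 459, 365 and 355 CPM with PBMC-sec and 175, 133 and 189.6 CPM without, a log2 change of 1.77 ± 0.26 (edgeR adjusted p = 0.00320). Grhl3, a grainyhead factor needed for barrier formation, had 229, 219 and 207 CPM with PBMC-sec and 101, 119 and 106 CPM without (1.52). Prdm1, a repressor that acts in granular cells, changed by 1.75, Cebpa by 1.64, Elf3 by 1.48, Ovol1 by 1.21 and Ehf by 1.09. The member that fell was Trp63, the p63 factor that maintains basal keratinocytes. It had 101, 97.1 and 40.7 CPM with PBMC-sec and 179, 195 and 211 CPM without, a log2 change of -0.89 ± 0.24 (edgeR adjusted p = 0.0393).

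EGF receptor ligands and feedback genes rose in 6 of 11 tested cases, none fell, and the median was 0.93; by library totals 3 rose and 2 fell. Btc, the ligand betacellulin, had 339, 96.4 and 43.9 CPM with PBMC-sec and 13.4, 10.8 and 18.6 CPM without, and was highest at 8 weeks. Its log2 change was 3.58 ± 0.44 (edgeR adjusted p = 0.00167). Ereg, the ligand epiregulin, had 745, 438 and 229 CPM with PBMC-sec and 179.6, 184 and 48.7 CPM without (2.34). The ligands Tgfa and Hbegf changed by 1.26 and 0.93, and the feedback genes Phlda1 and Dusp5 by 1.59 and 1.17. The rule for choosing cells left out cells with 2 or more UMIs of Epgn, another ligand of the same receptor, so that member is no finding here. Without the limits on Nppb and Epgn there were 212, 347 and 364 members with PBMC-sec and 506, 264 and 165 without.

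Among proteases, inhibitors, junctions and secreted defence genes the counts of calls were small. Spink5 rose by 1.94 ± 0.39 on the log2 scale, with 3525, 2509 and 2261 CPM in PBMC-sec libraries and 1201, 941 and 924 CPM in untreated libraries (edgeR adjusted p = 0.0117). The call was lost without either 26-week library. Of 22 epidermal proteases and inhibitors 4 rose and 1 fell (median 0.65), and by library totals 0 rose and 1 fell. Those that rose were the membrane protease St14 (1.19), its partner Prss8 (1.09), the kallikrein Klk9 (1.24) and the inhibitor Serpinb8 (1.14); St14 and Prss8 overlapped between groups. The member that fell was Serpinb1a (-1.51), an inhibitor of neutrophil proteases that was prone to free RNA. Klk7, a kallikrein that sheds corneocytes, had a log2 difference of 1.40 that did not pass (edgeR adjusted p = 0.0544). Of 27 desmosome and junction genes 3 rose, a share near the 8.89% of all genes, with a median of 0.27; by library totals 1 rose, with a median of -0.24. The tight junction gene Cldn4 was among the 3 (1.91). Of 26 alarmin, antimicrobial and cytokine genes 5 rose and none fell (median 0.23), and by library totals 1 rose and 2 fell. Defb1, a β-defensin, had 736, 489 and 536 CPM with PBMC-sec and 146, 137 and 139.5 CPM without, a log2 change of 2.55 ± 0.31. The prostaglandin synthase Ptgs2 (1.33), the cytokine Tslp (1.74), the chemokine Cxcl16 (1.04) and S100a10 (1.32) were the others that rose.

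**Figure D3:**
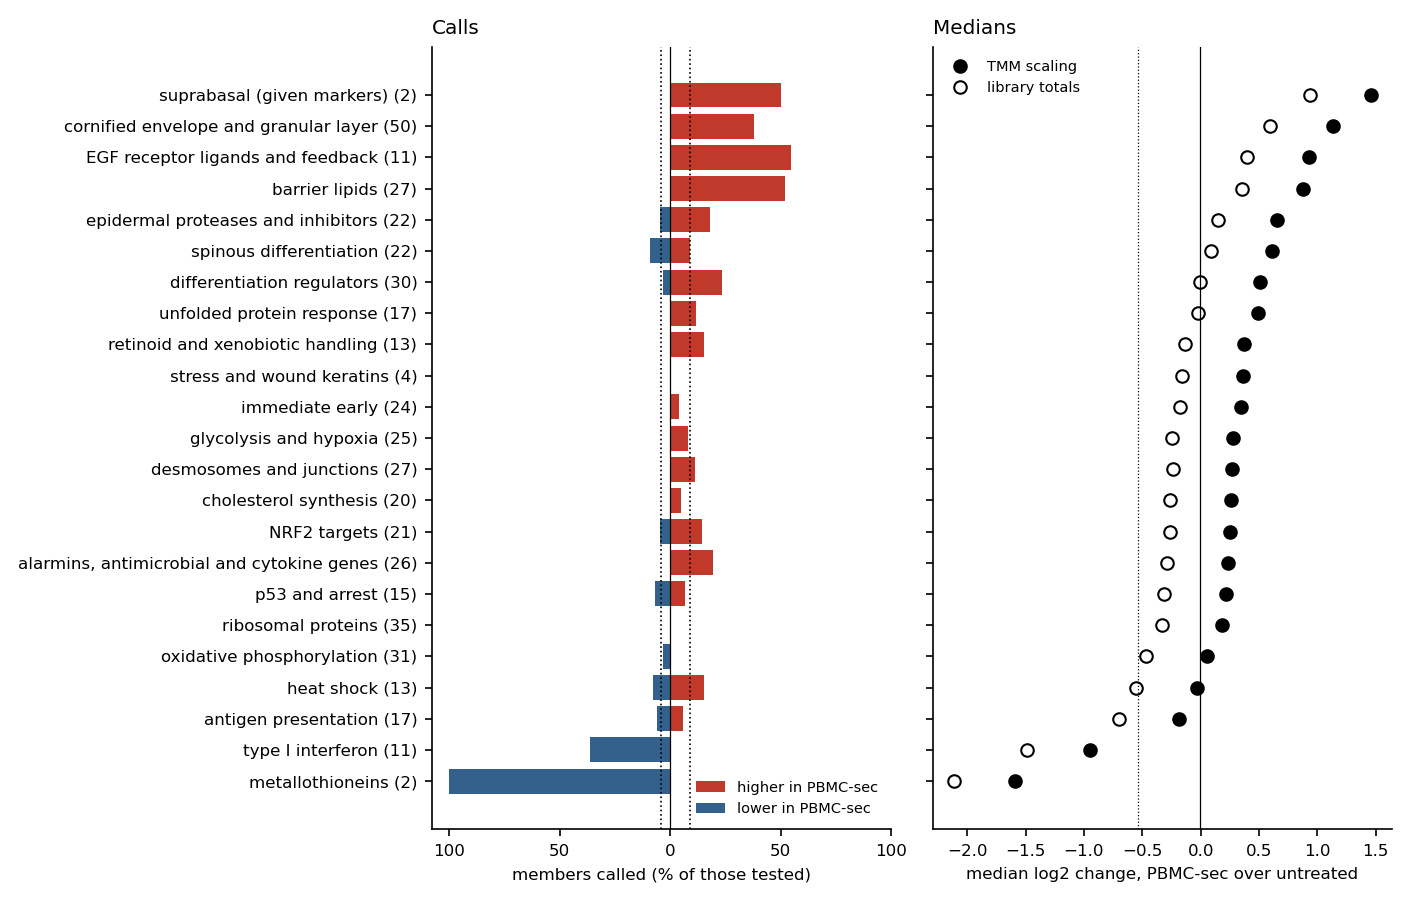
Left, the percent of each list's tested genes (number in brackets) called higher (red, to the right) or lower (blue, to the left) with PBMC-sec, with dotted lines at the background of 8.89% and 4.06%; right, the list's median log2 change with TMM scaling (filled) and by library totals (open), with a dotted line at the all-gene median of -0.53 by totals. Apart from the given markers, the cornified envelope (1.14), EGF receptor (0.93) and barrier lipid (0.88) medians lie highest, and the metallothionein list (Mt1 and Mt2, -1.59) and interferon genes (-0.95) lowest.

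The largest named change of all belonged to Akr1b3, aldose reductase, which reduces glucose and lipid aldehydes (chr6:34302434-34317478, minus strand, GRCm38). It had 2631, 1265 and 1299 CPM in PBMC-sec libraries and 18.2, 26.3 and 12.9 CPM in untreated libraries, a log2 change of 6.97 ± 0.53 (edgeR adjusted p = 0.000245). After thinning it was seen in 47.5%, 39.3% and 28.6% of PBMC-sec suprabasal cells and 4.59%, 4.76% and 4.96% of untreated ones. The share was at a similar or higher level in fibroblast-gated cells, with 47.9%, 45.5% and 41.8% with PBMC-sec and 9.26%, 11.7% and 8.11% without. The presence of a UMI thus does not set suprabasal cells apart from fibroblast-gated ones. Whether the Akr1b3 RNA in fibroblast-gated cells is their own or free RNA was not tested.

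Further genes named by their size rose in every age pair. Pinlyp, a phospholipase A2 inhibitor, had 207, 161 and 43.0 CPM with PBMC-sec and 6.23, 8.77 and 10.7 CPM without, a log2 change of 4.29 ± 0.39. Calm5, a calmodulin-like protein, had 1279.8, 1236 and 952 CPM with PBMC-sec and 293, 258 and 147 CPM without (2.87 ± 0.39). The solute carrier Slc46a2 changed by 3.03 ± 0.28 and Atp1b1, the β subunit of the sodium pump, by 2.89 ± 0.47. None of these 4 genes overlapped between the groups. Without the loricrin-high cells Atp1b1 had a log2 difference of 0.06 (edgeR adjusted p = 0.924).

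Genes that fell outnumbered those that rose only by library totals among the scalings tried. Wfdc12, a small protein with a whey acidic protein domain found in protease inhibitors (chr2:164189231-164190608, minus strand), had 88.1, 8.19 and 16.7 CPM with PBMC-sec and 540.4, 141 and 591 CPM without. The log2 change was -3.40 ± 0.37 (edgeR adjusted p = 0.000910), and the highest PBMC-sec library lay below the lowest untreated one. Gadl1, an enzyme of β-alanine synthesis, had 85.5, 27.5 and 11.6 CPM with PBMC-sec and 300.4, 192 and 163 CPM without (-2.28 ± 0.29). Arhgdib, a GTPase dissociation inhibitor, changed by -1.76, Cisd1, an iron-sulfur protein of the outer mitochondrial membrane, by -1.62, and Trappc6a, of a vesicle tethering complex, by -1.43. Il1r2, the decoy receptor of interleukin 1, changed by -1.22, the calpain subunit Capns2 by -1.24, the actin bundler Espn by -1.16, Gsdmc, a gasdermin with close copies in the mouse, by -1.24, and Dgcr6 by -1.17.

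Of the metallothioneins, which bind zinc and copper, Mt1 and Mt2 fell and Mt4, the form of stratified epithelia, rose. Mt1 had 862, 1922 and 554 CPM with PBMC-sec and 4224, 5691 and 3587 CPM without, a log2 change of -1.66 ± 0.41 (edgeR adjusted p = 0.0257), and Mt2 changed by -1.52. Mt4 had 0, 5.21 and 75.5 CPM with PBMC-sec and 2.4, 0 and 10.7 CPM without, a log2 change of 3.15 ± 0.76 (edgeR adjusted p = 0.0250). Its groups overlapped, it was prone to free RNA, and its log2 difference was 1.30 without the 52-week PBMC-sec library and 1.32 without the 52-week untreated library, where it did not pass; nor did it pass by library totals or DESeq2. Of 11 interferon-regulated genes none rose and 4 fell, with a median of -0.95. By library totals 7 fell, with a median of -1.49. Without the loricrin-high cells 2 of 8 fell. Of the 11 genes, 7 were prone to free RNA, being over 5 times higher in the remaining cells of at least 1 library. Ifi35, an interferon-induced protein, had 27.1, 25.7 and 5.56 CPM with PBMC-sec and 87.7, 84.4 and 47.9 CPM without (-1.63 ± 0.25; edgeR adjusted p = 0.00357). Ifih1, a sensor of viral RNA, and Bst2, which tethers budding viruses, changed by -1.21 and -1.40; Bst2 overlapped between the groups and was prone to free RNA, whose part was not tested. The summed CPM of 10 T and innate lymphoid markers, which moves with this group, was 1.7, 0.7 and 1.9 with PBMC-sec and 51.7, 10.1 and 8.6 without, and its part in the result was not tested.

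Stress lists had few calls, in shares not far from the 8.89% higher and 4.06% lower over all genes. Of 13 heat shock genes 2 rose and 1 fell, with a median of -0.03. Hspa1a, inducible heat shock protein 70 with a near-identical neighbour copy, had 234, 295 and 249 CPM with PBMC-sec and 668, 786 and 1071 CPM without (-1.16). Cryab, a small heat shock protein, had 1334, 497 and 1555 CPM with PBMC-sec and 30.2, 27.7 and 5.72 CPM without (6.14), but it is abundant in other cells of these libraries and was seen in 59.9% to 68.1% of fibroblast-gated cells with PBMC-sec. Of 24 immediate early genes 1 rose, and of 17 unfolded protein response genes 2 rose. Of 21 NRF2 targets, the antioxidant defence genes, 3 rose and 1 fell, with the reductase Akr1b8 at 1.14 and thioredoxin, Txn1, at 0.85.

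Several further lists had few or no calls, beside 8.89% higher and 4.06% lower over all genes. None of 35 ribosomal protein genes passed (median 0.18, and -0.33 by library totals). Of the 4 tested stress and wound keratins none passed: Krt16 had 10855, 6092 and 4313 CPM with PBMC-sec and 5313, 6065 and 7400.2 CPM without, and Krt17 had 9107, 9151 and 4704 CPM with PBMC-sec and 6113, 9131 and 4913 CPM without. Both overlapped between the groups. Of 25 glycolysis and hypoxia genes 2 rose, of 31 oxidative phosphorylation genes 1 fell, of 20 cholesterol synthesis genes 1 rose, and of 22 spinous genes 2 rose and 2 fell. Of 17 antigen presentation genes 1 rose and 1 fell, of 15 p53 genes 1 rose and 1 fell, and of 13 retinoid genes 2 rose. A gene that missed the threshold may still differ. Counts were simulated from the mean of each gene without age effects, and only genes above a minimum level were changed. There 48% of genes changed 2-fold and all changed 4-fold were called. The real libraries also differ by age, and larger changes can be missed in them: Sprr1a did not pass at a log2 difference of 2.46.

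The suprabasal cells are not uniform, and loricrin, a late gene of the granular layer, divides them. Cells with at least 0.5% of their UMIs from Lor are called loricrin-high here; the limit was set after the distribution of Lor had been seen. They made up 23.4% (37 of 158), 18.3% (44 of 240) and 16.3% (42 of 257) of PBMC-sec cells, against 22.1% (98 of 443), 9.36% (19 of 203) and 5.65% (7 of 124) of untreated cells. Few cells lay near the limit: 4, 8 and 6 PBMC-sec cells and 18, 0 and 0 untreated cells had 0.2% to 0.5%. In the 8-week untreated library the loricrin-high cells were shallow, with a median of 1381 UMIs, against 13590 in the 8-week PBMC-sec library. With every cell thinned to 2000 UMIs, shallower cells left out, the shares were 25.5%, 18.8% and 15.9% with PBMC-sec and 8.26%, 8.47% and 4.96% without. Without the near-identical barcodes the 8-week untreated share, unthinned, was 28.4% (93 of 327).

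Levels of several of these genes differed between the subsets. Akr1b3 had 5852, 3386 and 4472 CPM in PBMC-sec loricrin-high cells, against 10.2, 3.16 and 0 CPM in untreated ones, and 444, 305 and 217 CPM in the remaining PBMC-sec cells, against 20.7, 32.6 and 15.3 CPM in untreated ones. Lce3d had 3459.8, 5925 and 8948 CPM in PBMC-sec loricrin-high cells and 402, 2144 and 1022 CPM in untreated ones. Outside that subset it had 29.9, 464 and 2791 CPM with PBMC-sec and 271, 471 and 96.9 CPM without. Lce3d was thus higher in loricrin-high cells of every library, and outside them the groups overlapped.

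Sprr1b showed another pattern, with PBMC-sec levels at least as high outside the loricrin-high subset as in it. It had 8396, 6550.0 and 8343 CPM in PBMC-sec loricrin-high cells and 179, 1014 and 0 CPM in untreated ones, and elsewhere 11299.8, 10925 and 12969 CPM with PBMC-sec and 906, 1328 and 934 CPM without. Btc was seen almost only in loricrin-high cells, with 838, 308 and 173 CPM in PBMC-sec ones and 48.8, 50.5 and 118 CPM in untreated ones, against at most 1 CPM in other PBMC-sec cells. Within loricrin-high cells Lce1m was lower with PBMC-sec, at 14130.5, 15469.7 and 11238 CPM against 30129, 24398 and 17799 CPM untreated. The subsets were cut from a measured gene, so these levels are a description.

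Calls were made again without the loricrin-high cells, an alternative added after the data had been seen. Then 255 genes were higher and 120 lower. Of 43 tested cornified envelope genes 19 were higher, of which 11 were also called over all suprabasal cells and 8 were not. The barrier lipids had 7 of 27 higher and the EGF receptor list 2 of 10. Sprr1b (3.91), Sprr2d (2.74), Akr1b3 (4.22), Flg (2.86) and Spink5 (2.27) passed in these cells. Lce3d (0.55, edgeR adjusted p = 0.856), Lce3e (2.41, 0.137), Sprr2e (2.20, 0.102) and Mt1 (-1.53, 0.0751) did not. Further calls lost included those of Lce3b (1.59), Lce3c (1.29), Lce3f (0.63), Ereg (1.11), Trp63 (-0.76), Slc27a4 (0.40), Cryab (4.79) and Il1r2 (-0.89). Hspa1a, Gsdmc, Capns2, Bst2, Ifih1, Ehf, Hbegf, Klk9, Dgat2, Per1 and Ankrd37 were also among the losses. Of the reported gene results for treatment, age and class that could be tested, 61 kept their call and sign, 50 lost their call and 2 reversed. Btc, Lce3a and Sprr4 had too few UMIs left to be tested.

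Other envelope genes passed here but not over all suprabasal cells. Lor changed by 3.50 (edgeR adjusted p = 0.0354), Lce1m by 3.57 (0.0370), Lce1c by 4.52 (0.0205), Lce1a2 by 5.08 (0.0231), and Lce1a1, Lce1b and Lce1l by 4.0, 4.26 and 5.33. Their levels were low there: Lce1m had 14.2, 151 and 18.7 CPM in these PBMC-sec cells and 9.4, 4.29 and 0 CPM in untreated ones, and the cells had been cut by their Lor level, so the Lor value rests on the limit. The part of free RNA in these low levels was not tested.

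**Figure D4:**
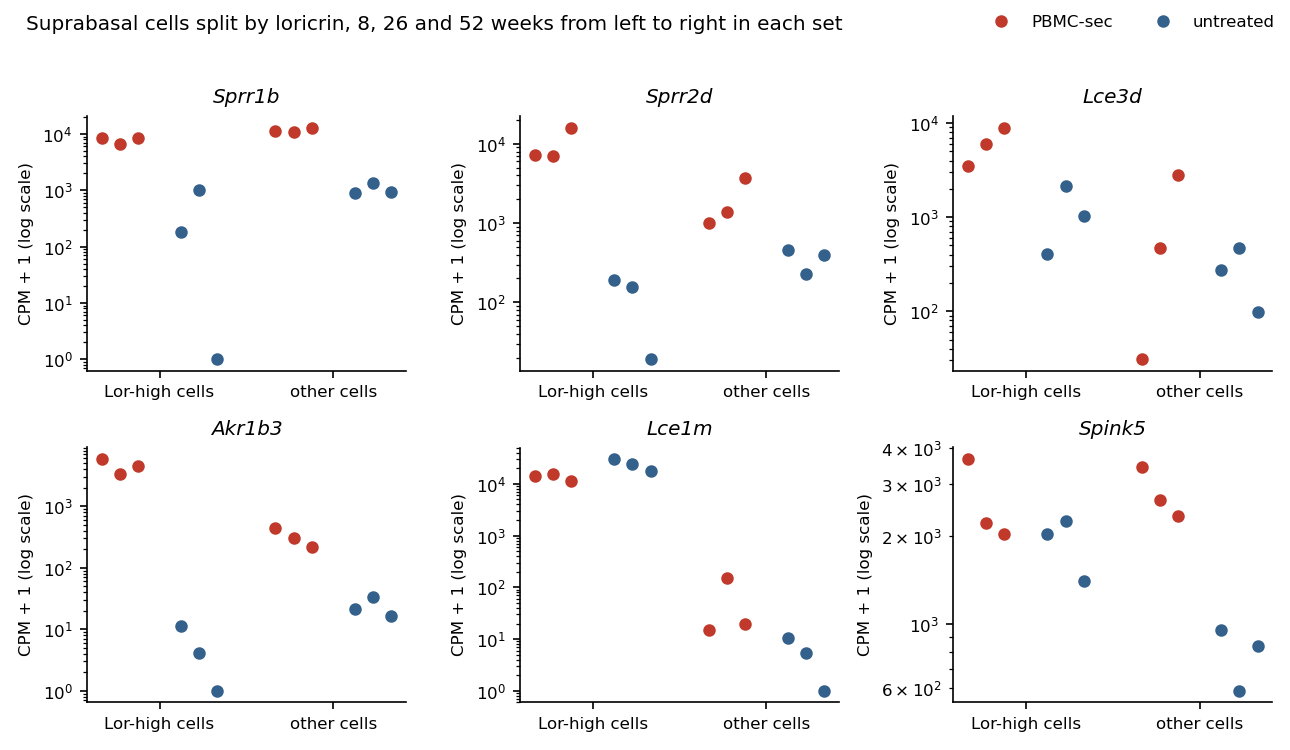
Level (CPM + 1, log axis) of 6 genes in loricrin-high suprabasal cells and in the other suprabasal cells, 1 point per library, PBMC-sec in red left of untreated in blue, ages from left to right. Akr1b3 and Lce3d are highest in loricrin-high PBMC-sec cells, while Sprr1b with PBMC-sec lies between 6550 and 12969 CPM in both subsets.

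Whether suprabasal cells responded differently from basal ones was tested within libraries. Basal cells had at least 20 UMIs of Krt5 and Krt14, more than of Krt1, Krt10 and Krtdap, and met the same other limits: 1108, 873 and 386 cells with PBMC-sec and 1325, 1153 and 492 without. Of 10731 genes, 640 (5.96%) had a PBMC-sec change that differed between the classes in edgeR's quasi-likelihood test of class by treatment. It was more positive in suprabasal cells for 420 (3.91%) and more negative for 220 (2.05%). Without the 8-week PBMC-sec library the counts were 240 and 133, without the 8-week untreated library 253 and 134, without the 26-week PBMC-sec library 261 and 144, and without the 26-week untreated library 294 and 142. Without the 52-week untreated library the count of more negative genes was 348. By library totals 165 were more positive and 576 more negative.

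Barrier lipid genes stood on the positive side, with 9 of 27 more positive in suprabasal cells and none more negative. Among 51 cornified envelope genes 18 were more positive and 16 more negative. Lce3d (4.60 ± 0.44, edgeR adjusted p = 8.61e-07), Lce3f (4.48 ± 0.45), Lce3e (4.43 ± 0.67), Sprr2d (4.20 ± 0.39), Lce3c (3.70 ± 0.57) and Sprr2e (3.65 ± 0.38) had the most positive differences in log2 change of those named by the rule. Sprr2d had 3562, 3175 and 6849 CPM with PBMC-sec and 399, 214 and 338 CPM without in suprabasal cells, and 46.2, 61.3 and 1046 CPM with PBMC-sec and 172, 96.6 and 221 CPM without in basal cells. In basal cells it was lower with PBMC-sec at 8 and 26 weeks and higher at 52 weeks. Lce3d in basal cells had 14.7, 12.8 and 1621 CPM with PBMC-sec and 129, 240.0 and 363 CPM without, the same order at each age.

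Of the genes named by the rule, the most negative differences were those of Lce1c (-7.28 ± 0.75), Lce1a2 (-6.63 ± 0.74), Lce1m (-5.24 ± 0.42), Lce1a1 (-4.57 ± 0.71), Lce1b (-4.22 ± 0.78) and Lor (-3.81 ± 0.62). Levels of these genes in basal-gated cells were higher with PBMC-sec than without. Lor had 149, 55.9 and 2123 CPM in PBMC-sec basal cells and 23.1, 4.35 and 9.79 CPM in untreated basal cells, against levels in suprabasal cells that overlapped between treatments. Lce1m had 89.5, 9.11 and 123 CPM in PBMC-sec basal cells and 3.12, 0.502 and 0.794 CPM in untreated ones. The 52-week PBMC-sec basal cells carried the most of these granular transcripts, and whether the RNA is their own or free RNA was not tested. Without the loricrin-high cells the Lce1c, Lce1a2, Lce1a1 and Lor differences did not pass, at -0.58, -0.48, -1.11 and -1.56, and that of Lce1b was 0.30. Here only the suprabasal class was cut by its Lor level and all basal cells were kept, so the classes were not treated evenly. Akr1b3 and Sprr1b rose more in suprabasal cells, by 2.97 and 1.85 ± 0.31 on the log2 scale (edgeR adjusted p = 0.000880 for Sprr1b).

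**Figure D5:**
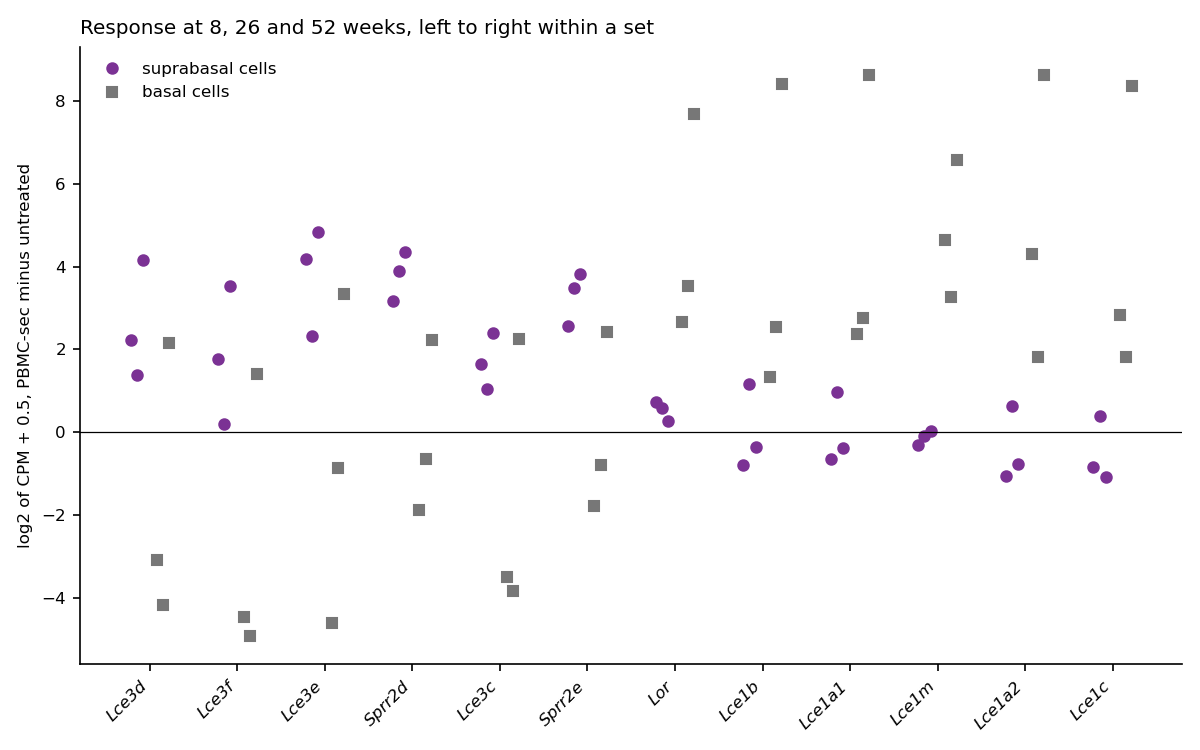
Difference of log2(CPM + 0.5), PBMC-sec minus untreated, at 8, 26 and 52 weeks from left to right in suprabasal cells (circles) and basal cells (squares) for the 12 named genes whose response differed between the classes. Lce3d and Sprr2d are above 0 in suprabasal cells at all 3 ages, whereas the Lor and Lce1m values in basal cells reach 7.69 and 6.58 at 52 weeks.

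The share of suprabasal among all keratin-gated keratinocytes did not move one way. It was 12.5% with PBMC-sec (exact 95% binomial interval 10.7% to 14.4%; 158 of 1266 cells), against 25.1% untreated (23.1% to 27.1%; 443 of 1768), at 8 weeks. At 26 weeks it was 21.6% with PBMC-sec (19.2% to 24.1%; 240 of 1113) and 15% untreated (13.1% to 17.0%; 203 of 1356). At 52 weeks it was 40.0% with PBMC-sec (36.2% to 43.9%; 257 of 643) and 20.1% untreated (17.0% to 23.5%; 124 of 616). The intervals cover counting error only. The 3 log2 odds ratios were -1.23, 0.64 and 1.40, with a mean of 0.27 ± 1.35 (SD, n = 3 ages), and an exact two-sided sign-flip permutation test gave p = 0.75, where 0.25 is the smallest possible. With cells thinned to 2000 UMIs before the gate, which evens out depth, the log2 odds ratios were -0.61, 0.64 and 1.19, with a mean of 0.405. Without the Nppb and Epgn limits they were -1.42, -0.07 and 0.29, with a mean of -0.399, so that the 26-week direction depends on those limits. Without the 52-week pair the mean was -0.29. The part of dissociation in these shares was not tested.

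Age left few calls in suprabasal cells. Between 52 and 8 weeks, with treatment as a factor, 6 of 8073 genes (0.0743%) passed, 4 higher (0.0495%) and 2 lower (0.0248%) at 52 weeks, while 1580 genes (19.6%) had an unadjusted p under 0.05. Faah, fatty acid amide hydrolase, fell by 2.64 on the log2 scale (edgeR adjusted p = 0.0482). It had 329, 166 and 38.1 CPM in PBMC-sec libraries at 8, 26 and 52 weeks, and 62.8, 36.4 and 7.87 CPM in untreated libraries. Zfp593, a zinc finger protein, rose by 2.27 ± 0.31, with 27.9, 61.8 and 115 CPM in PBMC-sec libraries and 39.3, 56.7 and 157 CPM in untreated libraries. Ipmk, inositol polyphosphate multikinase, rose by 2.01 ± 0.30, with 28.8, 35.4 and 91.6 CPM in PBMC-sec libraries and 47.4, 53.3 and 167 CPM in untreated libraries. Faah was lowest and the other genes highest at 52 weeks within each treatment. The remaining calls were Trim2, lower at 52 weeks, and Rptn and Procr, higher at 52 weeks, of which Rptn and Procr were prone to free RNA.

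The age counts hang on single libraries. The genes called higher and lower were 7 and 14 without the 8-week PBMC-sec library, 247 and 113 without the 8-week untreated library, 124 and 71 without the 26-week PBMC-sec library, and 124 and 68 without the 26-week untreated library. They were 112 and 119 without the 52-week PBMC-sec library and 1355 and 848 without the 52-week untreated library. DESeq2 called 70 higher and 24 lower. Of the gene lists, the cornified envelope list alone had a call by age, which was Rptn. Of 35 ribosomal protein genes none passed, with a median log2 difference of 0.998 at 52 against 8 weeks, beside -0.01 over all genes.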

How the data were processed

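The authors deposited raw UMI counts per gene and barcode, made with Cell Ranger 5.0.1 per the file headers and with genome build mm10 (GRCm38) per the submitters' processing notes, for 6 libraries of 32285 genes with 19956655 to 40211991 UMIs each. These counts were filtered and gated cell by cell, and the raw UMIs of the chosen cells were summed per library (Python 3.11.15, scanpy 1.11.5). edgeR 4.0.16 in R 4.3.3 tested the sums with TMM scaling, its filter on low counts, age and treatment as factors (2 residual degrees of freedom, common biological coefficient of variation 0.248) and Benjamini-Hochberg adjustment over all genes tested at 0.05. The response of suprabasal against basal cells was tested on 12 sums with library, class, class by age and class by treatment. The fit was tested on simulated data. Intervals of shares are exact binomial ones and cover counting error only, as do the depths above.

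Named for PBMC-sec were the 12 called genes with the largest rise and the 12 with the largest fall among those with a mean of at least 50 CPM, at least 10 UMIs in every library, the same sign at all 3 ages, and not prone to free RNA. A gene is prone where the remaining cells of any library had over 5 times its suprabasal CPM. For age and for the class difference 6 and 6 were named likewise, with called list members and each list's 3 members at the highest level. The limits on level used suprabasal cells only, so a gene named for the class difference could be nearly absent from basal cells. The members and lists were chosen with earlier results of these data known. Depth lets cells pass limits on raw UMIs more easily, so the gate was also run on cells thinned to 2000 UMIs. Near-identical barcodes were groups of at least 10 cells whose counts scattered little around a shared profile (Pearson dispersion at most 2, a limit above what sampling alone gives). Whether low depth alone lets cells meet this limit was not tested. Scrublet's own limit called no doublets, so the cells with the top scores were removed as an alternative. Some genes are not reported here. Of the gene IDs, 32158 had coordinates in the annotation. Other alternatives were another scaling, no filter, no age factor, leaving out each library or age, other cell limits, thinned sums and DESeq2 1.42.0.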

Additional observations from a re-analysis of the deposited data

Results flagged for a closer look

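The PBMC-sec change of 12 genes differed between suprabasal and basal cells in edgeR's test of class by treatment, and these are the largest of 640 such differences that meet the naming rule. The differences, suprabasal minus basal on the log2 scale with edgeR adjusted p, were 4.60 for Lce3d (8.61e-07), 4.48 for Lce3f (1.32e-06), 4.43 for Lce3e (0.000344), 4.20 for Sprr2d (4.30e-07), 3.70 for Lce3c (0.000375) and 3.65 for Sprr2e (2.51e-06). On the other side they were -7.28 for Lce1c (1.89e-06), -6.63 for Lce1a2 (6.55e-06), -5.24 for Lce1m (6.07e-08), -4.57 for Lce1a1 (0.000396), -4.22 for Lce1b (0.00189) and -3.81 for Lor (0.000580). The naming rule set no minimum level in basal cells, where some of these genes were very low. Lce1c had 0.492, 0.335 and 0.794 CPM in untreated basal cells at 8, 26 and 52 weeks. Lce3e had 0.167, 2.80 and 218 CPM in PBMC-sec basal cells at those ages. Without the loricrin-high cells the Lce3 and Sprr2 differences still passed, as did that of Lce1m (-2.66), while those of the other Lce1 genes and of Lor did not. Those cells were left out of the suprabasal class only, and all basal cells were kept.

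The share of suprabasal cells among keratin-gated cells moved in opposite directions with age: the log2 odds ratio of PBMC-sec over untreated was -1.23 at 8 weeks, 0.64 at 26 weeks and 1.40 at 52 weeks. In cells thinned to equal depth it was -0.61, 0.64 and 1.19. Without the Nppb and Epgn limits it was -1.42, -0.07 and 0.29, so the direction at 26 weeks changed and the 52-week value was smaller. The difference between ages was not tested, since each age has 1 library per treatment.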

How the results depend on the processing

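For genes higher and lower with PBMC-sec (718 and 328), the counts were 194 and 666 scaled to library totals, 245 and 111 without age as a factor, 244 and 106 with cells thinned before the gate, and 255 and 120 without loricrin-high cells. Higher genes were 469 without both 26-week libraries and 473 with a keratin minimum of 40. Lower genes were 589 with no filter, 506 without both 52-week libraries, 552 without the Nppb and Epgn limits and 148 by DESeq2. Leaving out a library gave 528 to 1069 higher and 182 to 740 lower.

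For genes higher and lower at 52 weeks (4 and 2), the counts were 0 and 0 with RLE (relative log expression) scaling, with a keratin minimum of 40, without likely doublets and without loricrin-high cells, 402 and 150 with no filter, 106 and 67 without both 26-week libraries, and 38 and 22 without near-identical barcodes. They were 39 and 16 with sums thinned and 70 and 24 by DESeq2. Higher genes were 1 by library totals, and 1 and 0 genes were higher and lower with cells thinned and without the Nppb and Epgn limits. Leaving out a library gave 7 to 1355 higher and 14 to 848 lower.

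For a suprabasal change above and below the basal one (420 and 220), the counts were 165 and 576 by library totals and 253 and 144 without both 8-week libraries. They were 126 and 38 with cells thinned, and 222 and 72 without the loricrin-high cells of the suprabasal class, with all basal cells kept. Lower genes were 146 without both 26-week libraries, 398 without both 52-week libraries, 141 with a keratin minimum of 40 and 146 with sums thinned. Leaving out a library gave 240 to 558 above and 133 to 348 below. The mean log2 odds ratio of the share (0.27) was -0.399 without the Nppb and Epgn limits, and -0.29 to 1.02 leaving out an age.

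Of 102 PBMC-sec genes named or called in a list and reported, 30 kept their call and sign under every alternative in which they were tested. Among these, Btc, Lce3a, Sprr4 and Cyp26b1 could not be tested in every alternative. With library totals 64 of the 102 passed. Reversed were Casp14 (-0.0051) with cells thinned and Hsph1 (-0.14) without loricrin-high cells, and the class difference of Lce1b (0.30) without loricrin-high cells. The cause of these changes was not tested; 4449 genes were tested in thinned cells and 7692 without loricrin-high cells. Library totals and leaving out loricrin-high cells were chosen after seeing the data. Age as a factor pairs the 2 libraries of each age, and the counts without it are given above; there are no replicate numbers to pair by. Depth limits the sums to 1180679 UMIs in the smallest library.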

Other observations

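Cd68 rose in suprabasal cells with PBMC-sec. Cd68 had 136, 121 and 117 CPM in PBMC-sec libraries and 22.0, 31.0 and 33.6 CPM in untreated libraries, a log2 change of 2.65 ± 0.25 (edgeR adjusted p = 0.000527), whereas the macrophage genes Lyz2 and C1qa had at most 1.49 and 7.44 CPM in PBMC-sec suprabasal cells. Cyp26b1, which degrades retinoic acid, changed by 2.68 and the clock gene Per1 by 1.40; Cyp26b1 was prone to free RNA. Slc7a11, the cystine transporter, changed by -2.62 and was likewise prone. Tgm3, a transglutaminase that cross-links envelope proteins, fell by 1.12 on the log2 scale, while Ankrd37 changed by 1.90.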
